A study of Mus musculus with 5 samples.

Results

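Rag1, Rag2 and Dntt encode the enzymes that assemble and diversify antigen receptor genes, and they are described here in mouse bone marrow cells, along B cell development, in progenitors and over the days after leukaemia cells were injected. The members were chosen by name as the genes of the recombinase and of the polymerase that edits its junctions, and all 3 were found among the 28692 genes of the deposited matrices. Levels were read in barcodes with at least 500 UMIs (unique molecular identifiers, each standing for a captured RNA molecule).

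The study followed the marrow environment of BCR-ABL1 pre-B acute lymphoblastic leukaemia (ALL) by droplet sequencing of unsorted cells with 10x Genomics 3' chemistry. All 5 mice were C57BL/6J, 8 weeks old and not irradiated, and each was given 1000 BCR-ABL1 pre-B ALL cells through the tail vein, the day 0 mouse included. Marrow of that mouse was taken at once and that of the others on days 3, 6, 9 and 12, so that each day is 1 library from 1 mouse and no mouse went without the injection. Femur and tibia marrow was flushed and digested, red cells were lysed and cells were cryopreserved before capture, and nothing in the labels marks a barcode as transplanted or host.

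During V(D)J recombination the RAG1 and RAG2 proteins act together as a recombinase that cleaves DNA beside the V, D and J segments of immunoglobulin and T cell receptor genes. Terminal deoxynucleotidyl transferase, the product of Dntt, adds nucleotides without a template at the junctions before they are sealed. In B cell development the heavy chain locus is joined in pro-B cells, the recombinase is withdrawn while large pre-B cells divide, and it returns in small pre-B cells, where light chain loci are joined; Dntt is also known from early lymphoid progenitors and plasmacytoid dendritic cells.

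Rag1 (ENSMUSG00000061311) lies on the minus strand at chr2:101638282-101649501 of the mouse build GRCm38 and has 2 exons and 1 transcript in GENCODE M21. Rag2 (ENSMUSG00000032864) lies on the plus strand at chr2:101624718-101632529, with 3 exons and 2 transcripts. The 3' ends of the Rag genes face each other across 5752 bases. Dntt (ENSMUSG00000025014) lies at chr19:41029275-41059525 on the plus strand, with 12 exons and 3 transcripts. A further gene, B230118H07Rik at chr2:101560781-101649532, spans both Rag genes on the minus strand, and 1 of its transcripts has an exon opposite the last exon of Rag2, while others share the first exon of Rag1.

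The 250 bases before each start are shown because the patterns of Rag1 and Rag2 over cell classes were more alike than either was to Dntt. Pearson's r was 0.890 between the Rag genes, 0.431 between Dntt and Rag1 and 0.468 between Dntt and Rag2. The part of these bases in the levels was not tested. They come from RefSeq on build GRCm38.p6, where 3 of 3 members matched, and run 5' to 3' on each gene's own strand. Capitals mark E-boxes, the letters CANNTG, which basic helix-loop-helix proteins such as the E2A product of Tcf3 can bind. The intervals are chr2:101649533-101649782 (minus strand) for Rag1, chr2:101624462-101624711 (plus strand) for Rag2 and chr19:41029025-41029274 (plus strand) for Dntt. The RefSeq starts of Rag1 and Rag2 lie somewhat upstream of the GENCODE starts given above, and the Rag1 window also adjoins the start of B230118H07Rik.
Rag1: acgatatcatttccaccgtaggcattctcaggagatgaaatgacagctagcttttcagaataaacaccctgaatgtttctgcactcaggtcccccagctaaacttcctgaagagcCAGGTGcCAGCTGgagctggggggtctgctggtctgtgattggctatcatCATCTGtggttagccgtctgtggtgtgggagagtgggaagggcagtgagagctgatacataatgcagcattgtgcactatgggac
Rag2: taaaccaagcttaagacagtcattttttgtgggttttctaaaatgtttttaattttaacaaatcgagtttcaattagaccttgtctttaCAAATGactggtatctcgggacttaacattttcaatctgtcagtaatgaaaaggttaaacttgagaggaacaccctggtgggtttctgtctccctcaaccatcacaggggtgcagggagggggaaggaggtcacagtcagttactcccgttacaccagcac
Dntt: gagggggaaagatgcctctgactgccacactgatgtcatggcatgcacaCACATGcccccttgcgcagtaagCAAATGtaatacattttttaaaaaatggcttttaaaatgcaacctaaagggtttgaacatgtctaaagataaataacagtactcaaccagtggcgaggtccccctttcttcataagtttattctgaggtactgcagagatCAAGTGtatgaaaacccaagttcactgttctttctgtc
Rag1 held 3 E-boxes in this window: CAGGTG began 135 bases before the start, CAGCTG lay at 128 bases and CATCTG at 85 bases. Rag2 held 1, CAAATG, which began 161 bases before its start. Dntt held 3: CACATG began 201 bases before the start, CAAATG lay at 178 bases and CAAGTG at 38 bases. The letters CANNTG read alike on both strands, and 66.2% of 32841 RefSeq promoters of this length held at least 1 while 12.2% held 3 or more. The FOXO letters GTAAACA, searched on both strands, matched none of the 3 promoters and 3.17% of all. The ETS core GGAA, also on both strands, had 3 matches for Rag1, 2 for Rag2 and 1 for Dntt and was present in 93.5% of promoters. The initiator letters CTCANTCT were absent from the 250 bases of each member, a window that ends before the start, and present in 4.56% of promoters. In a window of 300 bases that runs past the start, Dntt held 1 match, after the start on the opposite strand. Rag1 and Rag2 held 0 there, and 5.64% of promoters held a match. Matches are descriptions of letters in these windows and not sites. GC content was 50.8% for Rag1, 41.2% for Rag2 and 41.6% for Dntt.

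Depth was alike over the libraries, with 35329966 UMIs on day 0, 38827241 on day 3, 40601920 on day 6, 43554233 on day 9 and 33425695 on day 12. Barcodes with at least 500 UMIs numbered 6680 on day 0, 5474 on day 3, 6506 on day 6, 7604 on day 9 and 5871 on day 12, with medians of 2874, 3786, 3382, 3254 and 3408 UMIs. Of the 32135 barcodes, 574 sequences were seen in more than 1 library, with 44 to 73 shared by a pair of libraries. Of Rag1, 896 UMIs were counted in these barcodes, of Rag2 340 and of Dntt 3810. Intervals below are exact 95% intervals (Poisson for levels, Clopper-Pearson for shares) and cover counting error only, since no group has a second mouse.

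Cells were grouped without the 3 genes, and groups were named from fixed markers. Pro-B-like cells (211) carried the surrogate light chain gene Vpreb1 at 50.9 counts per 10000 UMIs, the highest of their marker list, and 1 of the 9 markers was at 0. Small pre-B-like cells (591) carried Il2ra at 1.12 counts per 10000 UMIs against 0 in pro-B-like cells. Cycling B-lineage cells (298) held the cycling list at 41.9 summed counts per 10000 UMIs, led by Top2a at 8.17, against 1.62 in pro-B-like and 1.92 in small pre-B-like cells. The 5 unnamed B-lineage clusters are called by their leading genes. Of these, the Nrgn Bfsp2 cluster (168 cells) passed 5 of 9 cycling markers, but its top 10 genes held more markers of small pre-B cells. The Rnase12 Myl10 cluster passed 3 of 9 pro-B markers, but 124 of its 125 cells came from day 3. In the first clustering of all cells, a cluster led by Myl10 and Rnase12 (126 cells, all from day 3) passed 8 of 9. Lymphoid progenitor-like cells (82), with 5 of 7 markers passed, had Flt3 and Il7r among the leading genes. The first of those genes was Cox6a2, a marker of the plasmacytoid dendritic list. Stem and multipotent progenitor-like cells (168), the largest of their 3 clusters led by Hlf, were the other class set before the B-lineage cells. The plasmacytoid dendritic list summed to 6.21 counts per 10000 UMIs in lymphoid progenitor-like, 2.34 in stem and multipotent progenitor-like and 81.9 in plasmacytoid dendritic-like cells.

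Rag1 encodes the recombinase subunit that carries the DNA-cleaving site. Its summed level was highest in small pre-B-like cells, at 3.71 counts per 10000 UMIs (3.34 to 4.10, 379 counts). In pro-B-like cells it was 2.90 (2.52 to 3.33, 202 counts), and the intervals of these neighbours lie just apart. By library the intervals lie apart on day 0 only, and on day 3 pro-B-like cells held more. Without the barcodes richer in neutrophil RNA, an alternative chosen after seeing the data, small pre-B-like cells held 3.04. In cycling B-lineage cells it was 0.416 (0.328 to 0.520, 77 counts), so that the gene was low in the dividing cells and high in both non-dividing classes. The Nrgn Bfsp2 cluster held 0.165 (0.118 to 0.224), the Ifi30 Ms4a1 cluster 0.0961 (0.0461 to 0.177) and lymphoid progenitor-like cells 0.0578 (0.0212 to 0.126), and the intervals of these 3 overlap one another. Mature B-like cells (1738) held 4 Rag1 counts in all, a level of 0.0133 (0.00361 to 0.0340). A B-lineage cluster led by mt-Atp6 (89 cells, median 683 UMIs, 21% mitochondrial counts) stood between at 1.27 (0.580 to 2.41), and a cluster led by S100a8, with 82.8% of its cells marked as doublets, at 0.321.

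Over the libraries Rag1 in small pre-B-like cells was 4.04 (3.24 to 4.99) on day 0, 4.02 (3.04 to 5.22) on day 3, 3.29 (2.75 to 3.92) on day 6, 3.93 (3.20 to 4.78) on day 9 and 3.28 (1.57 to 6.03) counts per 10000 UMIs on day 12, when only 17 such cells were found. All 5 intervals overlap. In pro-B-like cells Rag1 was 2.49 (1.92 to 3.17), 4.14 (2.75 to 5.99), 2.98 (2.19 to 3.97), 3.11 (2.34 to 4.06) and 2.20 (0.884 to 4.53) in the same order, again with overlapping intervals. In cycling B-lineage cells the level was 0.310 on day 0, 0.467 on day 3, 0.355 on day 6 and 0.542 on day 9. Each of these 4 values lay below each value of the small pre-B-like and pro-B-like cells, so the trough at the cycling stage was present in every library with at least 20 cells of each class. This rests on keeping the Rnase12 Myl10 cluster apart. With it added to the pro-B-like cells, the day 3 pro-B-like value lay below the cycling value.

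Rag1 UMIs were seen in 39.6% of small pre-B-like cells (35.6 to 43.7) at a median of 1665 UMIs and in 53.6% of pro-B-like cells (46.6 to 60.4) at a median of 3039 UMIs. In neutrophil-like cells, which should lack the gene, the share was 0.344% at a median of 3343 UMIs. With each cell thinned to 1000 UMIs, the shares were 29.5% in small pre-B-like cells (72 cells left out), 27.1% in pro-B-like cells (4 left out) and 0.0662% in neutrophil-like cells (818 left out). At equal depth the share of cells with Rag1 UMIs was thus alike in both B-lineage classes. Cycling B-lineage cells showed 20.5% before and 8.14% after thinning (3 left out). The most Rag1 UMIs in a cell were 9 in pro-B-like and 6 in small pre-B-like cells.

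**Figure D1:**
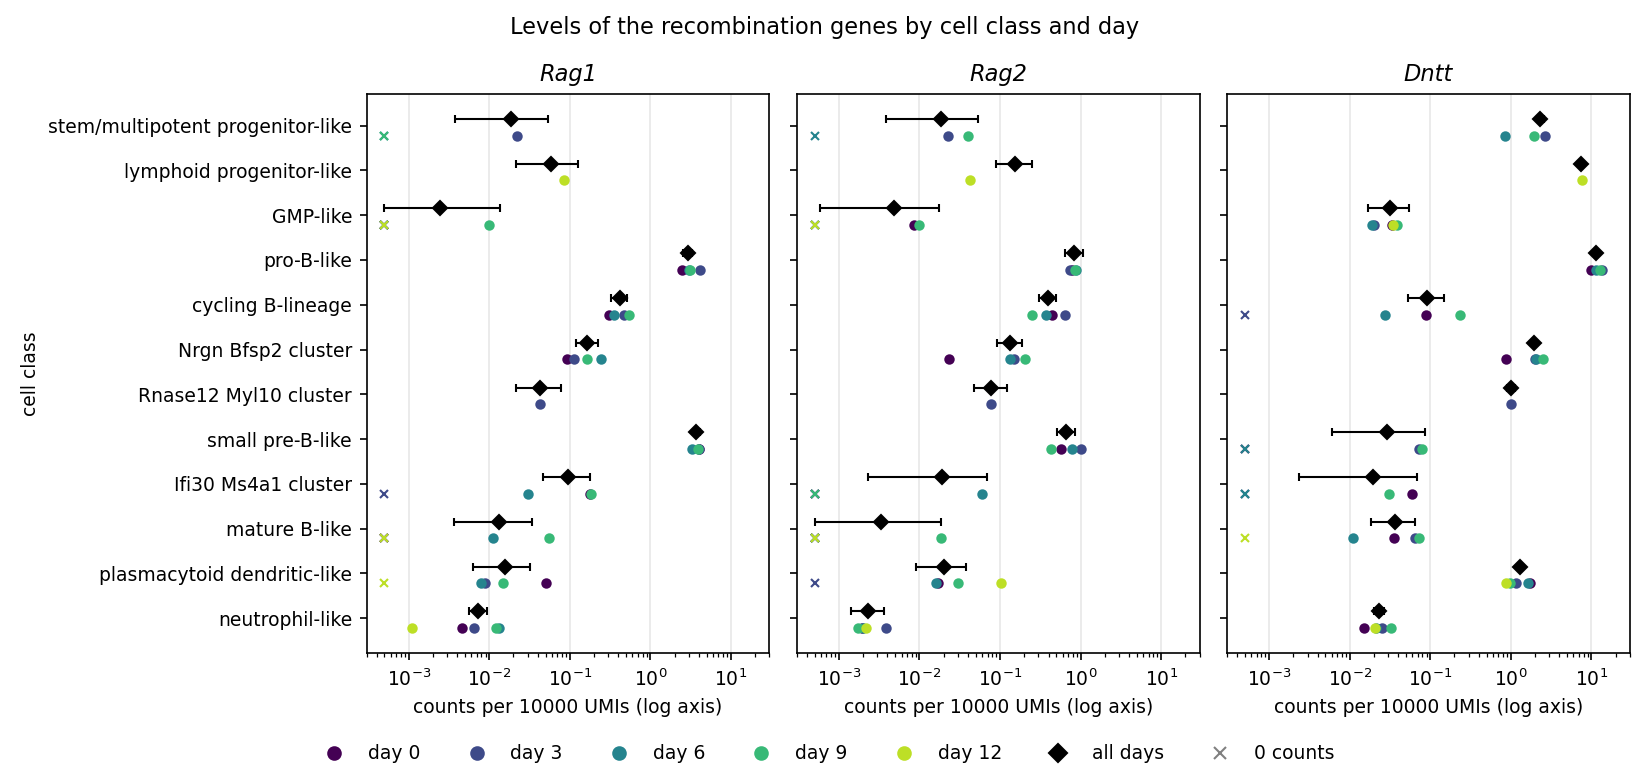
Summed level of Rag1, Rag2 and Dntt (x axis, counts per 10000 UMIs, log scale) in 12 cell classes; black diamonds are all libraries with 95% Poisson intervals, coloured circles are libraries with at least 20 cells of the class, and a cross at the left edge is a level of 0. Rag1 and Rag2 peak in the pro-B-like and small pre-B-like classes, and Dntt in pro-B-like and lymphoid progenitor-like cells.

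The plot of levels by class shows the members side by side. Its classes run from progenitors through B-lineage classes to mature B-like cells, with plasmacytoid dendritic-like and neutrophil-like cells beneath. This order was set for display, and the place of the unnamed clusters in development was not tested. Granulocyte-monocyte progenitor-like cells are listed with the other progenitors and are not a B-lineage stage. Levels are to be read within a panel, since capture can differ between genes.

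Rag2 encodes the partner subunit, which binds modified histones at open segments. Its summed level was 0.833 counts per 10000 UMIs in pro-B-like cells (0.633 to 1.08, 58 counts) and 0.665 in small pre-B-like cells (0.516 to 0.843, 68 counts). In cycling B-lineage cells it was 0.394 (0.309 to 0.496, 73 counts). The first 2 intervals overlap, and the cycling value lies below both. With the Rnase12 Myl10 cluster added to them, pro-B-like cells held less Rag2 than cycling cells. Lymphoid progenitor-like cells held 0.154 (0.0882 to 0.25, 16 counts), the Nrgn Bfsp2 cluster 0.133 (0.0913 to 0.186) and the Rnase12 Myl10 cluster 0.0780 (0.0477 to 0.12). These 3 overlap one another and stand below the cycling cells. Mature B-like cells held 1 Rag2 count, a level of 0.00332 (8.39e-05 to 0.0185).

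By library Rag2 in pro-B-like cells was 0.792 on day 0, 0.740 on day 3, 0.889 on day 6, 0.864 on day 9 and 0.942 counts per 10000 UMIs on day 12. In small pre-B-like cells it was 0.564, 1.01, 0.778, 0.432 and 0.328, from counts of 12, 14, 30, 11 and 1. In cycling B-lineage cells it was 0.443, 0.634, 0.368, 0.253 and 0.754, the last from 7 cells. In libraries with at least 20 cells, the cycling value lay below both others on each of days 0, 3, 6 and 9, though each rests on few counts. With the Rnase12 Myl10 cluster added, the pro-B-like value of day 3 lay below the cycling value. Rag2 UMIs were seen in 21.3% of pro-B-like, 10.5% of small pre-B-like and 20.1% of cycling cells, the last at a median of 5150 UMIs, and in 0.109% of neutrophil-like cells at a median of 3343. After thinning to 1000 UMIs the shares were 7.25%, 7.13% and 5.42%, against 0.0120% in neutrophil-like cells, with 4, 72, 3 and 818 cells left out.

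The fall in summed level at the cycling stage differed in size between the Rag genes. For each Rag1 count there were 0.179 Rag2 counts in small pre-B-like cells (0.137 to 0.233), 0.287 in pro-B-like cells (0.211 to 0.386) and 0.948 in cycling B-lineage cells (0.679 to 1.32). The ratio is of counts, and capture may differ by gene, so that only its change over classes can be read. Put as a share, Rag2 supplied 15.2% of the Rag UMIs in small pre-B-like cells (68 of 447), 22.3% in pro-B-like cells (58 of 260) and 48.7% in cycling cells (73 of 150). In the Nrgn Bfsp2 cluster the share was 44.6% (33 of 74), in the Rnase12 Myl10 cluster 64.5% (20 of 31) and in lymphoid progenitor-like cells 72.7% (16 of 22). Neutrophil-like cells, where both genes were near 0, gave 24.1% (19 of 79). Other B-lineage clusters with few Rag counts lay with the small pre-B-like and pro-B-like cells, the Ifi30 Ms4a1 cluster at 16.7% (2 of 12), the S100a8 cluster at 22.6% (12 of 53) and the mt-Atp6 cluster at 25% (3 of 12). Cycling cells thus had a larger part of their Rag UMIs from Rag2 than the classes where both genes were high, and classes with few counts lay on either side.

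**Figure D2:**
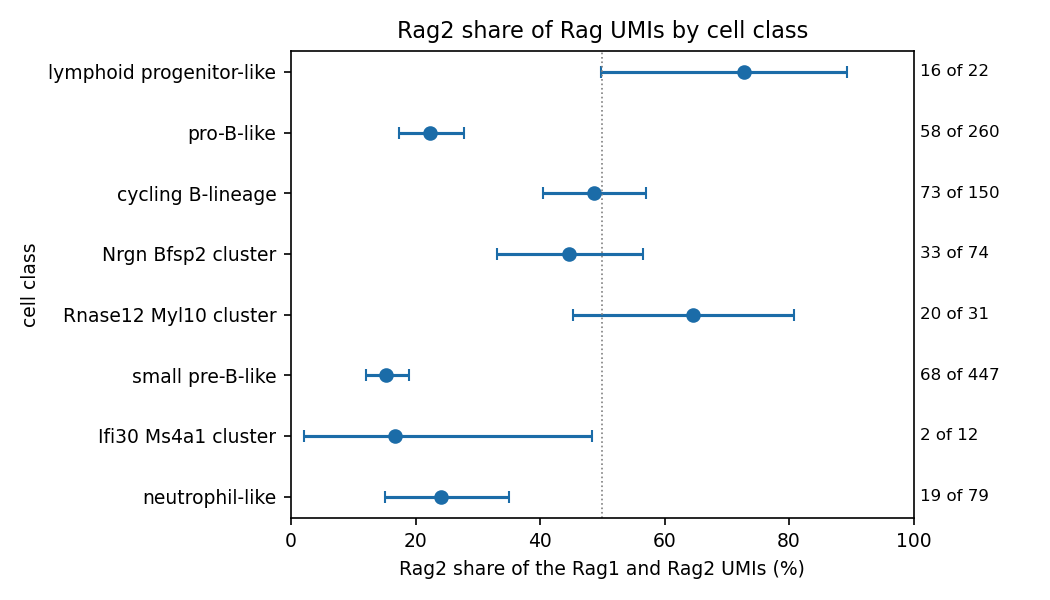
Share of Rag UMIs that came from Rag2 (x axis, percent of Rag1 and Rag2 UMIs) by cell class, with exact 95% intervals and the counts at the right; the dotted line marks 50%. Small pre-B-like (15.2%) and pro-B-like cells (22.3%) lie to the left of cycling B-lineage cells (48.7%).

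The plot of the Rag2 share has wide intervals for the classes with few Rag counts, lymphoid progenitor-like cells among them, where the ratio was 2.67 Rag2 per Rag1 count (0.991 to 8.32). By library the ratio in cycling cells was 1.43 on day 0, 1.36 on day 3, 1.04 on day 6 and 0.467 on day 9. In pro-B-like cells it was 0.318, 0.179, 0.298 and 0.278, and in small pre-B-like cells 0.140, 0.25, 0.236 and 0.110. The cycling value was the highest of the 3 on each of these days, and on day 9 it lay closest to the others. Its interval overlaps that of pro-B-like cells on days 0 and 9, and lies apart from that of small pre-B-like cells on each day.

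Dntt encodes the polymerase that adds untemplated nucleotides, and its pattern differed from that of the recombinase genes. In pro-B-like cells its summed level was 11.6 counts per 10000 UMIs (10.8 to 12.4, 806 counts), the highest of all classes. With the Rnase12 Myl10 cluster added to the pro-B-like cells, lymphoid progenitor-like cells were the highest. In small pre-B-like cells, where Rag1 was highest, it was 0.0293 (0.00605 to 0.0857) from 3 counts in 591 cells. In cycling B-lineage cells it was 0.0918 (0.0535 to 0.147), and 12 of those 17 counts came from 1 cell. Dntt was thus high at the pro-B stage and at or near the neutrophil-like level of 0.0231 (0.0199 to 0.0266) in small pre-B-like and mature B-like cells, the last at 0.0365 (0.0182 to 0.0653).

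Each library showed high Dntt in pro-B-like cells, with 10.0 (8.86 to 11.3) on day 0, 13.8 (11.1 to 16.9) on day 3, 11.3 (9.70 to 13.1) on day 6, 12.7 (11.1 to 14.5) on day 9 and 15.1 (11.1 to 19.99) counts per 10000 UMIs on day 12, the last from 10 cells. Small pre-B-like cells held 0, 1, 0, 2 and 0 Dntt counts in the same libraries. UMIs of Dntt were seen in 84.4% of pro-B-like cells (78.7 to 89.0) at a median of 3039 UMIs, and in 1.01% of neutrophil-like cells at a median of 3343. Thinned to 1000 UMIs the shares were 59.9% (52.9 to 66.6, 4 cells left out) and 0.265% (818 left out). Of pro-B-like cells 30.8% held 5 or more Dntt UMIs, and the highest count in a cell was 21. In small pre-B-like cells no thinned cell of 519 held a Dntt UMI.

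Lymphoid progenitor-like cells came next for Dntt, at 7.40 counts per 10000 UMIs (6.89 to 7.95, 768 counts), below pro-B-like cells with intervals that do not overlap. By library the intervals of these classes overlap on day 3. The libraries gave 3.74 (2.97 to 4.64), 11.7 (10.3 to 13.1), 3.03 (2.13 to 4.17), 8.59 (7.41 to 9.90) and 7.61 (6.53 to 8.80) in the order of days. These rest on 16, 15, 11, 17 and 23 cells, so only day 12 reached 20 cells. Counts were uneven over cells: 48.8% of the cells held 5 or more Dntt UMIs, the highest held 83, and 27 of 82 held none. UMIs were seen in 67.1% of cells at a median of 12312 UMIs and in 34.1% after thinning, with no cell left out. With 20 principal components in place of 30, the class held Dntt at 11.3, within the pro-B-like interval given above.

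Stem and multipotent progenitor-like cells held Dntt at 2.32 counts per 10000 UMIs (2.09 to 2.56, 378 counts). By library it was 3.42 (2.59 to 4.42), 2.64 (2.18 to 3.16), 0.857 (0.586 to 1.21), 1.94 (1.57 to 2.36) and 5.36 (4.19 to 6.74), the day 0 and day 12 values from 18 and 17 cells. UMIs were seen in 27.4% of cells at a median of 8592 UMIs and in 13.1% after thinning. Within the class, the clusters differed: the one led by Hlf (85 cells) held 1.55 (1.26 to 1.89), the one led by Ctla2a and Crem (47 cells) 4.84 (4.25 to 5.49) and the one led by Pf4 (36 cells) 0.769 (0.544 to 1.06). Granulocyte-monocyte progenitor-like cells (244) held Dntt at 0.0316 (0.0168 to 0.0540), near the neutrophil-like level. At the clustering resolution of 2.0, set after member levels had been seen, Dntt was thus highest in lymphoid and lowest in granulocyte-monocyte progenitor-like cells. At resolution 1.5 no lymphoid progenitor class was found.

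Rag1 and Rag2 had few counts in the progenitors that held Dntt. Lymphoid progenitor-like cells had Rag1 UMIs in 4 of 82 cells and Rag2 UMIs in 12 of 82. Of the 12 cells with Rag2, 11 also held Dntt (91.7%), as did 62.9% of the others, and after thinning only 1 cell held Rag2, without Dntt. Stem and multipotent progenitor-like cells had 3 Rag1 and 3 Rag2 counts in 168 cells, a level of 0.0184 (0.00379 to 0.0538) for each gene. Rag2 in lymphoid progenitor-like cells, at 0.154 (0.0882 to 0.25), lay above its level in neutrophil-like cells, 0.00232, and below that in pro-B-like cells, 0.833.

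The Nrgn Bfsp2 cluster held Dntt at 1.94 counts per 10000 UMIs (1.77 to 2.12, 483 counts), or 3.06 as a mean over cells, with the cycling list at 23.9 summed counts per 10000 UMIs. By library Dntt was 0.883 (0.625 to 1.21) on day 0, 1.98 (1.62 to 2.39) on day 3, 2.04 (1.67 to 2.46) on day 6, 2.5 (2.16 to 2.87) on day 9 and 1.69 (1.17 to 2.35) on day 12, the last from 13 cells. The day 0 value was the lowest, and its interval overlaps only that of day 12. UMIs were seen in 36.9% of cells at a median of 11683 UMIs and in 19.6% after thinning, and 23.2% of cells held 5 or more. Of the 24 cells with Rag1 UMIs, 23 also held Dntt (95.8%), against 27.1% of the other cells, so the members were counted in a subset of this cluster.

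The Rnase12 Myl10 cluster, with Cdkn2a and Tmem119 among its leading genes, came almost wholly from day 3. It held Dntt at 1.01 (0.891 to 1.14, 259 counts), Rag1 at 0.0429 (0.0214 to 0.0768) and Rag2 at 0.0780 counts per 10000 UMIs. Dntt UMIs were seen in 62.4% of its cells at a median of 19668 UMIs, the deepest class, and in 10.4% after thinning. A cluster from 1 library may be that library and not a type, so its values are kept apart from the pro-B-like cells. Added to them, an alternative chosen after seeing the data, it brought the pro-B-like Rag1 level to 0.653, Rag2 to 0.239 and Dntt to 3.27 counts per 10000 UMIs.

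Outside the B lineage and progenitors, Dntt was counted in plasmacytoid dendritic-like cells (821), interferon-producing cells that share some lymphoid transcripts. Their summed level was 1.30 counts per 10000 UMIs (1.19 to 1.41, 583 counts). It was 1.72 (1.40 to 2.09) on day 0, 1.16 (0.966 to 1.37) on day 3, 1.63 (1.42 to 1.87) on day 6, 0.971 (0.812 to 1.15) on day 9 and 0.875 (0.510 to 1.40) on day 12. Days 0 and 6 were the highest and days 9 and 12 the lowest, and the intervals of neighbours in this order overlap except between days 6 and 3. The neutrophil list summed to 381, 468, 298, 441 and 660.4 counts per 10000 UMIs in the class on days 0, 3, 6, 9 and 12, lowest on days 6 and 0, where Dntt was highest, and its part was not tested. UMIs were seen in 35.8% of cells (32.5 to 39.2) at a median of 4914 UMIs and in 12.5% after thinning (10.3 to 14.9, 3 cells left out), against 0.265% of thinned neutrophil-like cells.

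Clustered again by themselves, a split chosen after seeing the data, plasmacytoid dendritic-like cells held Dntt at 1.64 in the largest group (402 cells). A group led by cell division genes (115 cells) held 1.55, and a group led by Crem (115 cells) held 1.78. A group led by the monocyte genes S100a4 and Ms4a6c (153 cells) held 0.295, and a group led by the neutrophil genes S100a8 and Camp (36 cells) held 0.506 counts per 10000 UMIs. The intervals of the first 3 groups overlap, and Dntt was lower in those led by myeloid genes. The monocyte-led group held 14 of 111 cells of the class on day 0, 31 of 190 on day 3, 44 of 228 on day 6, 58 of 258 on day 9 and 6 of 34 on day 12. Scrublet marked 9.74% of the class as doublets, against 4.27% of pro-B-like and 1.86% of small pre-B-like cells, and their part was not tested beyond leaving out marked barcodes. Rag1 (7 counts) and Rag2 (9 counts) stood at 0.0156 (0.00626 to 0.0321) and 0.0200 (0.00915 to 0.0380) in the class, where neutrophil-like cells held 0.00732 (0.00559 to 0.00943) and 0.00232 (0.00140 to 0.00362).

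The order of the classes by Dntt was pro-B-like, lymphoid progenitor-like, stem and multipotent progenitor-like, the Nrgn Bfsp2 cluster, the mt-Atp6 cluster, plasmacytoid dendritic-like and the Rnase12 Myl10 cluster. Of these neighbours the intervals overlap for the stem class and the Nrgn Bfsp2 cluster, which change places as means over cells (2.0 and 3.06), and the interval of the mt-Atp6 cluster, at 1.83, overlaps both of its own neighbours. With the Rnase12 Myl10 cluster added to them, pro-B-like cells came after lymphoid progenitor-like cells. T-like cells (1726) held 0.0403 and monocyte-like cells (4226) 0.0191 Dntt counts per 10000 UMIs. Basophil or mast-like cells had no UMI of any member in 59 cells, and a limit of 3 cells for a count of 0 allows up to 5.08% of cells with a UMI.

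Where the UMIs of each member lay differed accordingly. Of the Rag1 UMIs 86.4% were in B-lineage clusters, with 42.3% in small pre-B-like, 22.5% in pro-B-like and 8.59% in cycling cells. Of the Rag2 UMIs 79.4% were in B-lineage clusters, with 20% in small pre-B-like, 17.1% in pro-B-like and 21.5% in cycling cells. Of the Dntt UMIs only 45.0% were in B-lineage clusters, and lymphoid progenitor-like cells held 20.2%, plasmacytoid dendritic-like cells 15.3% and stem and multipotent progenitor-like cells 9.92%. Neutrophil-like cells, by far the most frequent class with 17443 barcodes, held 6.70% of the Rag1 UMIs.

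Over whole libraries, and so with the mix of classes left in, Rag1 was 0.0653 on day 0, 0.0447 on day 3, 0.0823 on day 6, 0.0728 on day 9 and 0.0114 counts per 10000 UMIs on day 12. Rag2 was 0.0184, 0.0284, 0.0298, 0.0224 and 0.00664. Both were lowest on day 12, when B-lineage cells were 2.73% of barcodes, against 16.6% on day 0, 10.3% on day 3, 16.3% on day 6 and 12.6% on day 9. Dntt was 0.210, 0.348, 0.198, 0.279 and 0.162, so its day 12 value stood closer to the rest. On day 12 lymphoid progenitor-like cells supplied 41.0% of the Dntt UMIs and pro-B-like cells 10.9%, whereas on day 0 pro-B-like cells supplied 42.5% and lymphoid progenitor-like cells 12.9%. On day 3 the Rnase12 Myl10 cluster supplied 23.5%.

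Free RNA was read from barcodes with 1 to 100 UMIs. There Rag1 stood at 0.141 on day 0, 0.0589 on day 3, 0.172 on day 6, 0.175 on day 9 and 0.0358 on day 12, and Dntt at 0.346, 0.474, 0.310, 0.384 and 0.309 counts per 10000 UMIs. Rag2 stood at 0.0405, 0.0477, 0.0757, 0.0113 and 0.0102. The pro-B-like level of Dntt, and the Rag1 level of pro-B-like and small pre-B-like cells, lay above these values in each library. Dntt in cycling cells (0.0918) lay below all 5 free RNA values, and Rag1 in the Nrgn Bfsp2, Ifi30 Ms4a1 and lymphoid progenitor-like classes (0.165, 0.0961 and 0.0578) lay below those of days 6 and 9. RNA of the most frequent cells was present in the B-lineage classes too: the 9 neutrophil markers, none of them at 0, summed to 205 counts per 10000 UMIs in pro-B-like cells (S100a9 72.3), 298 in small pre-B-like (S100a9 105) and 179.8 in cycling cells. Their part in the member levels was not tested beyond leaving out the barcodes with more of it.

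Cells that held UMIs of both Rag genes were counted next, which asks whether the subunits were seen in the same cells. In pro-B-like cells 31 of 211 (14.7%) held both, and 11.4% would if the genes were spread independently over cells. In small pre-B-like cells 27 of 591 (4.57%) held both, against 4.15%, and in cycling cells 20 of 298 (6.71%), against 4.12%. Deep cells raise both shares, and after thinning 6 of 207 pro-B-like cells held both (2.90%, against 1.96%). With Dntt, pro-B-like cells overlapped broadly: 47.9% of them held Rag1 and Dntt, against 45.2%, and 89.4% of cells with Rag1 held Dntt while 78.6% of the others did. In small pre-B-like cells only 3 of 591 held Dntt, none of them with Rag1, and 0.201% of cells would hold both if independent, too few to read.

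Set against day 0, Rag1 and Dntt stayed within 1.67-fold in pro-B-like cells on days 3, 6 and 9, as did Rag1 in small pre-B-like cells, where Dntt had no count on day 0 and no ratio. In pro-B-like cells the Rag1 level was 1.67 times that of day 0 on day 3 (1.03 to 2.63), 1.20 times on day 6 (0.807 to 1.77) and 1.25 times on day 9 (0.856 to 1.82). Dntt in the same cells was 1.37 times (1.07 to 1.74), 1.13 times (0.927 to 1.37) and 1.27 times (1.06 to 1.52). Of the members with at least 50 counts there, Rag1 and Dntt, 1 of 2 passed 1.5-fold on day 3, when 21.3% of all genes tested did. On days 6 and 9, 0 of 2 did, beside 17.3% and 16.6% of genes. In small pre-B-like cells Rag1 was 0.994 (0.697 to 1.41), 0.814 (0.614 to 1.08) and 0.971 (0.720 to 1.31) times the day 0 level on days 3, 6 and 9, and it passed 1.5-fold on none of them, as against 17%, 15.3% and 16.1% of genes. The pro-B-like values of day 3 rest on 22 cells, and with the Rnase12 Myl10 cluster added the ratios to day 0 were 0.0598 for Rag1 and 0.134 for Dntt. In pro-B-like cells the median mitochondrial share was 2.70%, 3.99%, 3.12% and 3.66% on days 0, 3, 6 and 9, which is the order of Rag1 and Dntt, and the neutrophil list summed to 164, 208, 232 and 233 counts per 10000 UMIs. Their part was not tested.

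In the Nrgn Bfsp2 cluster Dntt was 2.24 times its day 0 level on day 3 (1.53 to 3.33), 2.31 times on day 6 (1.58 to 3.44) and 2.83 times on day 9 (1.99 to 4.11). The single member tested there passed 1.5-fold on all 3 days, beside 17.5%, 15.8% and 20.4% of genes, and its ratio stood above those of 99.4%, 99.4% and 99.5% of genes. All 3 ratios share the day 0 library, with 26 cells and 38 Dntt counts, and Dntt was counted in a minority of the cluster's cells. The median depth of the cluster was 14016 UMIs on day 0, 17694 on day 3, 14701 on day 6 and 9511 on day 9, and the neutrophil list summed to 117, 157, 181 and 147 counts per 10000 UMIs. The median mitochondrial share was 2.01%, 3.87%, 3.30% and 3.90%, lowest on day 0 as Dntt was. Their part was not tested, and mouse and day cannot be told apart. In the cluster led by S100a8, mostly marked as doublets, Dntt was 0.218 times its day 0 level on day 6 (0.0984 to 0.447) and 0.368 times on day 9 (0.193 to 0.683), each with under 50 counts, while on day 3, with more, it was 1.41 times that level (0.862 to 2.35). The progenitor classes, whose Dntt levels by library are given above, had fewer than 20 cells on day 0, and no ratio was taken.

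**Figure D3:**
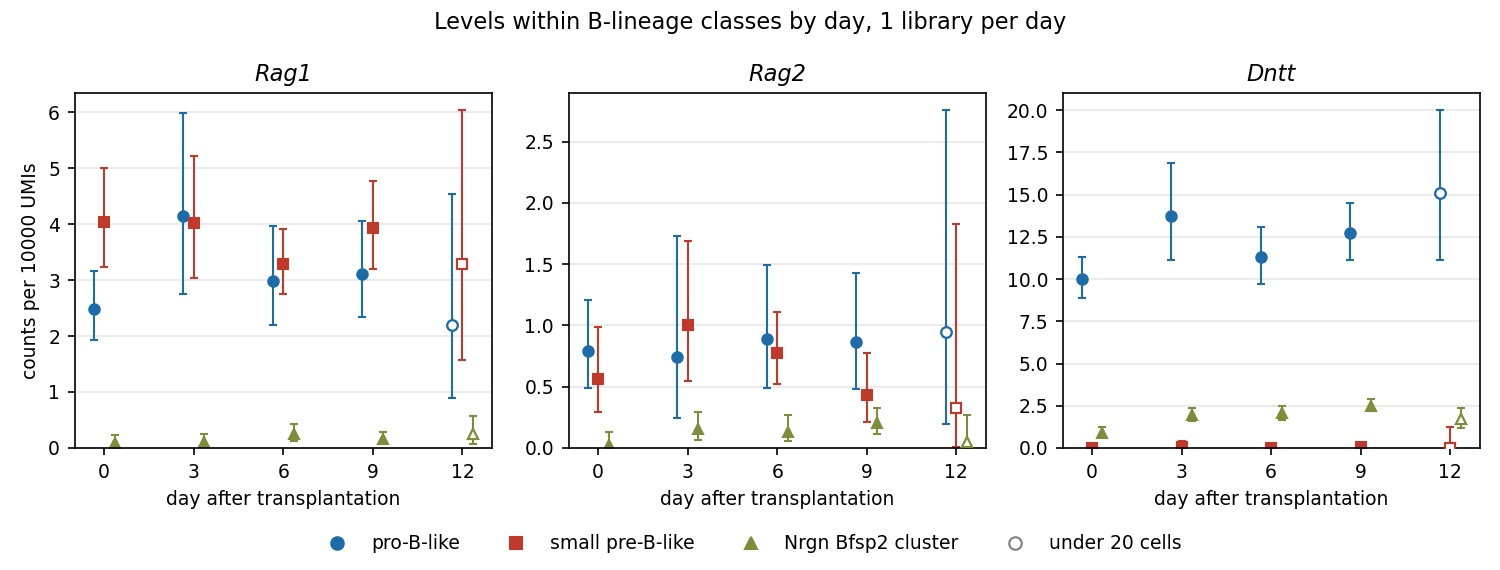
Summed level of Rag1, Rag2 and Dntt (y axis, counts per 10000 UMIs) by day after injection (x axis) in pro-B-like cells (circles), small pre-B-like cells (squares) and the Nrgn Bfsp2 cluster (triangles), with 95% Poisson intervals; open symbols stand for fewer than 20 cells. Dntt in the Nrgn Bfsp2 cluster goes from 0.883 on day 0 to 2.5 on day 9, and Rag1 in small pre-B-like cells stays between 3.28 and 4.04.

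The plot of levels by day shows that the order of the classes held on each day for Dntt, with pro-B-like cells highest, the Nrgn Bfsp2 cluster next and small pre-B-like cells at or near 0. With the Rnase12 Myl10 cluster added to the pro-B-like cells, their level on day 3 lay below that of the Nrgn Bfsp2 cluster. For Rag1 the pro-B-like and small pre-B-like intervals overlap on days 3, 6, 9 and 12.

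Small pre-B-like cells were divided by their level of Igkc, the kappa constant region gene that is transcribed strongly once kappa is in use, into 3 equal groups of 197 cells. The split was chosen after seeing the data, it is a range and not a type, and 32 cells lay within 10% of the lower limit (22.6 counts per 10000 UMIs) and 42 within 10% of the upper (58.1). Rag1 was 5.97 (5.10 to 6.94) in the lowest group, 3.58 (2.99 to 4.26) in the middle group and 2.13 (1.70 to 2.65) counts per 10000 UMIs in the highest. Rag1 fell from group to group with intervals that do not overlap, while median Igkc went from 8.81 to 97.8. The share of cells with Rag1 UMIs, thinned to 1000 UMIs, went from 45.8% to 28.7% and 17.0%. Rag2 was 0.706 (0.432 to 1.09), 0.805 (0.539 to 1.16) and 0.501 (0.301 to 0.782) over the same groups, with overlapping intervals, and Dntt had 0, 0 and 3 counts.

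**Figure D4:**
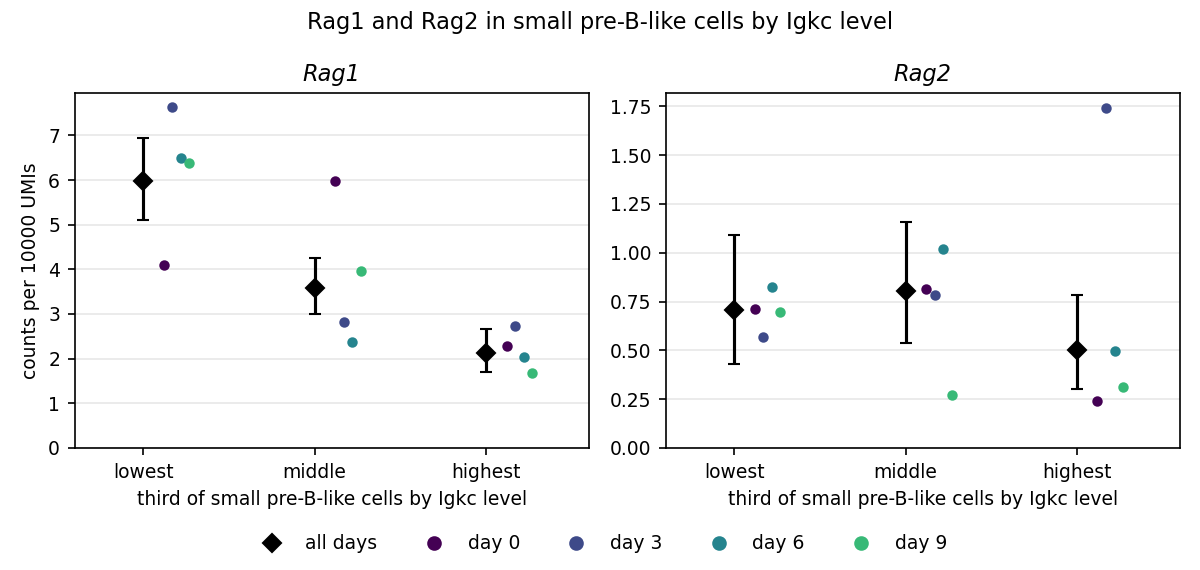
Summed level of Rag1 and Rag2 (y axis, counts per 10000 UMIs) in small pre-B-like cells divided by Igkc level into lowest, middle and highest groups; diamonds are all libraries with 95% Poisson intervals and circles the libraries of days 0, 3, 6 and 9. Rag1 goes from 5.97 in the lowest to 2.13 in the highest group, and Rag2 intervals overlap.

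The plot by Igkc level also shows the libraries. From the lowest to the highest group Rag1 was 7.64, 2.83 and 2.74 on day 3, 6.50, 2.38 and 2.05 on day 6, and 6.39, 3.96 and 1.68 on day 9. On day 0 the middle group was the highest, with 4.09, 5.98 and 2.29. The highest group held less Rag1 than the lowest in each of the 4 libraries. Igkc was counted relative to the same UMI totals, and the median depth was 1406 UMIs in the lowest, 1704 in the middle and 1888 in the highest group.

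Adjacent stages were then set against each other over all genes, in the libraries of days 0, 3, 6 and 9, with a gene called when it differed at least 2-fold the same way in each of the 4. From pro-B-like to cycling cells, which asks what the dividing stage lacks, 2 of 3 members were higher in pro-B-like cells, beside 3.83% of 5043 genes tested. Rag1 was 6.91 times higher (5.28 to 9.12) and Dntt 122 times (75.5 to 210.0), while Rag2, at 2.14 times, ranged from 1.17 to 3.42 over libraries and was not called. With the Rnase12 Myl10 cluster added to the pro-B-like cells, Rag1 was lower than in cycling cells on day 3 and lost its call. No member was lower in pro-B-like cells, where 7.75% of genes were. Against small pre-B-like cells, Rag1 was 8.75-fold lower in cycling cells, and 1 of the 2 members tested was called lower, beside 2.7% of 5444 genes, and none higher, beside 7.48%. Rag2 was 0.572 times the small pre-B-like level there and not called.

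Pro-B-like and small pre-B-like cells are the stages where heavy and light chain loci are joined. Of the members, 1 of 3 was higher in pro-B-like cells, beside 2.92% of 3968 genes, and none was lower, beside 3.45%. That member was Dntt, with 758 counts against 3 and a ratio of 378 (129 to 1835). Rag1 was 0.790 times (0.660 to 0.942) and Rag2 1.23 times (0.843 to 1.78) the small pre-B-like level. Small pre-B-like cells against mature B-like cells had 2 of 2 tested members higher, beside 5.45% of 6124 genes, and 0 lower, beside 3.17%. Rag1 was 268 times higher (104 to 989), and Rag2, with 67 counts against 1, was 195 times higher (33.8 to 7799.5). Dntt had 3 against 11 counts and was not tested.

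Genes that act with the recombinase, from lists chosen with earlier results known, were read in the same comparisons. Hmgb1 and Hmgb2 encode DNA-bending proteins that the recombinase uses as cofactors. Both were lower in pro-B-like than in cycling cells, beside 7.75% of all genes, Hmgb1 4.56-fold (10.2 against 46.6 counts per 10000 UMIs) and Hmgb2 9.94-fold (6.70 against 66.6). Both were also higher in cycling than in small pre-B-like cells, 4.26-fold and 11.1-fold, beside 7.48% of all genes. In mature B-like cells, where Rag1 was near 0, Hmgb1 stood at 4.30 and Hmgb2 at 3.57 counts per 10000 UMIs, and neither was called against small pre-B-like cells. Between pro-B-like and small pre-B-like cells neither was called, with Hmgb1 at 10.2 and 10.9 and Hmgb2 at 6.70 and 5.99 counts per 10000 UMIs. The list median was -2.77 on the log2 scale for pro-B-like against cycling cells, where the median of all genes was -0.08.

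Of 12 end-joining genes, which seal the breaks, 5 had enough counts for pro-B-like against cycling cells, with 1 higher, 1 lower (3.83% and 7.75% of all genes) and a median of 0.04 on the log2 scale. Xrcc6, which encodes the Ku70 end-binding subunit, was 3.39-fold higher in pro-B-like cells (5.78 against 1.70 counts per 10000 UMIs). Polm, a polymerase related to the Dntt product, was 5.59-fold lower (0.0602 against 0.337), from 4 counts in pro-B-like cells. Polm was also 16.2-fold lower in pro-B-like than in small pre-B-like cells, the only call of 5 tested, beside 3.45% of all genes lower. Over these stages it thus went the other way from Dntt. Between cycling and small pre-B-like cells 0 of 5 were called, beside 7.48% of genes higher and 2.7% lower. The list median there was -0.96, beside -0.06 for all genes. Against mature B-like cells 3 of 7 end-joining genes were higher in small pre-B-like cells, beside 5.45% of all genes, Xrcc6 31.1-fold, Lig4 13.6-fold and Polm 12.8-fold, with a list median of 0.83 beside 0.24 for all genes.

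Of 9 genes of the response to DNA breaks, 4 could be read for pro-B-like against cycling cells, and H2afx, the histone variant marked beside breaks, was 19.6-fold lower in pro-B-like cells (0.587 against 11.5 counts per 10000 UMIs), the only call of the 4 beside 7.75% of all genes lower. The list median was -0.96 on the log2 scale, beside -0.08 for all genes. Cycling cells held H2afx 15.4-fold and Rnf168 4.30-fold above small pre-B-like cells, 2 of 4 beside 7.48% of genes, with a list median of 0.93 beside -0.06. No gene of this list was called between small pre-B-like and mature B-like cells, where 4 were tested, beside 5.45% of genes higher and 3.17% lower, and the list median was 0.08 beside 0.24.

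Of 21 transcription factors of early lymphoid and B cells, 18 were tested for pro-B-like against cycling cells, with 3 higher and 1 lower, beside 3.83% and 7.75% of all genes, and a list median of 0.22 on the log2 scale, beside -0.08 for all genes. Lef1 was 14.0-fold higher in pro-B-like cells (5.63 against 0.403 counts per 10000 UMIs) and Satb1 8.08-fold (1.16 against 0.143), and Ebf1, named after its value was seen, 2.27-fold. Irf4 was 5.42-fold lower (0.211 against 1.14). Against small pre-B-like cells, 4 of 19 were lower in cycling cells, beside 2.7% of all genes tested: Foxo1, known to promote Rag transcription, 2.62-fold, Ikzf3 4.19-fold, Ebf1 2.67-fold and, named after its value was seen, Satb1 3.23-fold. With B-lineage cells clustered at resolution 0.6, 15 genes of all the lists, members included, were lower in cycling cells in place of 6, and 441 of all genes in place of 147. Foxo1 stood at 1.28 in pro-B-like, 0.616 in cycling and 1.61 counts per 10000 UMIs in small pre-B-like cells.

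Between pro-B-like and small pre-B-like cells, 1 of 18 factors was higher and 4 were lower in pro-B-like cells, beside 2.92% and 3.45% of all genes tested. Lef1 was 16.9-fold higher, which is the direction of Dntt. Ikzf3 was 20.7-fold, Irf4 7.36-fold, Spib 6.54-fold and Foxp1, named after its value was seen, 2.48-fold lower. Against mature B-like cells 7 of 18 factors were higher in small pre-B-like cells, beside 5.45% of all genes tested, among them Myb 40.6-fold, Irf4 5.81-fold, Tcf3 5.67-fold and Spib 4.40-fold. Foxo1 (2.45-fold), Ikzf1 (3.08-fold) and Ebf1 (3.32-fold), named after their values were seen, were the others, and Satb1, also named so, was 4.09-fold lower, beside 3.17% of genes.

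The light chain constant genes Igkc, Iglc1, Iglc2 and Iglc3 were all lower in pro-B-like than in small pre-B-like cells, by 15.8-fold, 93.1-fold, 51.5-fold and 76.4-fold, beside 3.45% of all genes, while Rag1 differed 1.27-fold. They were also lower in pro-B-like than in cycling cells, Igkc 7.29-fold and Iglc3 25.9-fold, beside 7.75% of genes. From cycling to small pre-B-like cells 1 of 4 was called, Iglc1, 5.73-fold lower in cycling cells, beside 2.7%. Of the genes beside the Rag locus, Traf6 was 4.52-fold higher in small pre-B-like than in mature B-like cells. It was 1 of 2 tested there, beside 5.45% of all genes higher. Commd9 and Traf6 were called in none of the other comparisons. B230118H07Rik, whose exons touch both Rag genes, stood at 0.172 in pro-B-like, 0.0702 in cycling, 0.362 in small pre-B-like and 0.0166 counts per 10000 UMIs in mature B-like cells. It stood higher in lymphoid progenitor-like cells, at 0.347, than in pro-B-like cells and at 0.16 in neutrophil-like cells, unlike Rag1. Reads of the shared exon cannot be told apart from Rag1 reads.

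**Figure D5:**
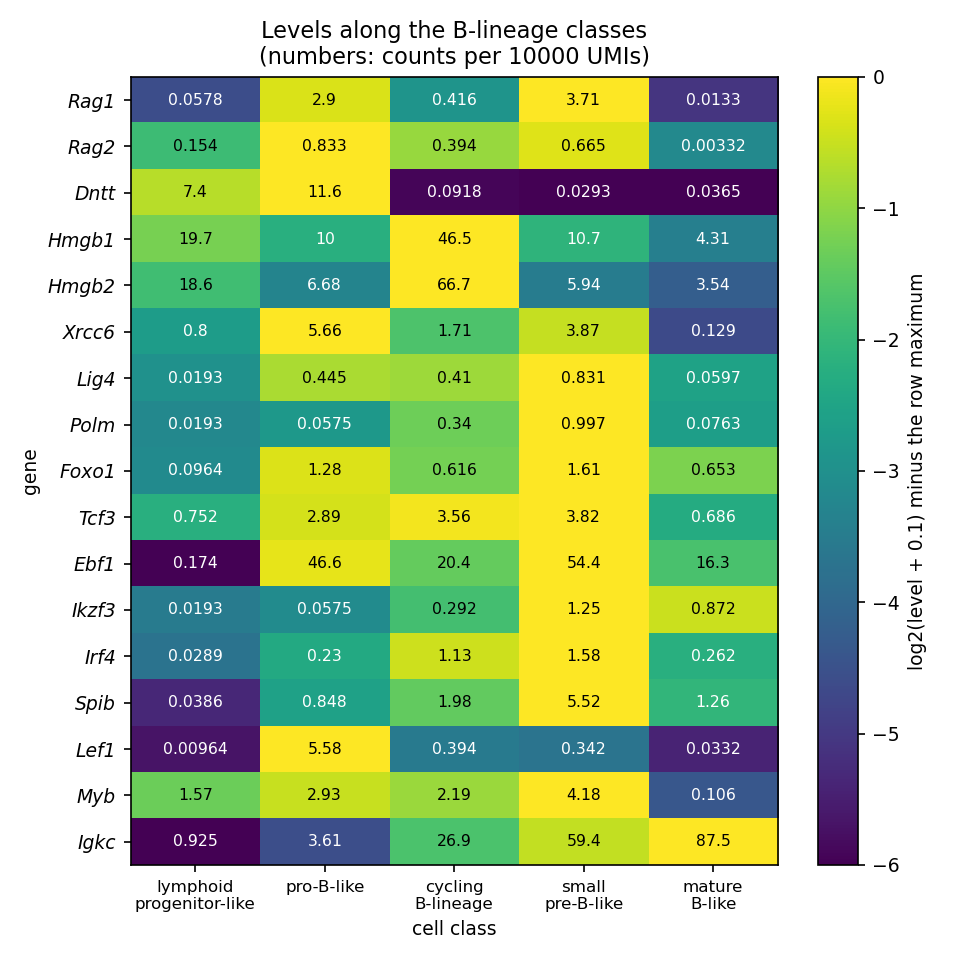
Levels of 17 genes (Rag1, Rag2, Dntt and list genes) in lymphoid progenitor-like, pro-B-like, cycling B-lineage, small pre-B-like and mature B-like cells; numbers are counts per 10000 UMIs and colour is log2 of the level plus 0.1, less the highest of that gene. Hmgb1 and Hmgb2 are highest in cycling cells, and Rag1 is lowest of the 3 early B-lineage classes there.

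The heat map of list genes is coloured within each gene, so that each line shows in which class a gene was highest. Xrcc6 stood at 5.66 in pro-B-like, 1.71 in cycling and 3.87 counts per 10000 UMIs in small pre-B-like cells. Xrcc6 was called lower in cycling than in pro-B-like cells only and Foxo1 lower than in small pre-B-like cells only, whereas Rag1, Ebf1 and Satb1 were called on both sides. The Rag1 call against pro-B-like cells was lost with the Rnase12 Myl10 cluster added to them. Lef1 is, like Dntt, highest in pro-B-like cells, but unlike Dntt it was near 0 in lymphoid progenitor-like cells, at 0.00964.

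Genes whose pattern was most like each member were found over 70 sums of a class in a library, each of at least 20 cells, with Pearson's r of log2 levels over 10720 genes. For Rag1 they were Gfra1 (0.925), Sec63 (0.910), Xrcc6 (0.894), Rag2 (0.890) and Gm37065 (0.883). For Rag2 they were Gfra1 (0.908), Sec63 (0.904), Gm37065 (0.902), Rag1 (0.890) and Stambpl1 (0.888). With a constant of 0.1 added before the log, the Rag genes were each among the 5 nearest of the other. For Dntt they were Arpp21 (0.811), Egfl7 (0.776), Erg (0.771), Tcf7l2 (0.756) and Epb41l4b (0.755), none of which is among the 5 of either Rag gene. Dntt and Rag1 had r 0.431, and Dntt and Rag2 0.468. Sums of a library share its depth and free RNA, and sums of a class share its cells, so r is a description only. With a constant of 1 in place of 0.1 on the log scale, 3 of the 5 genes for Rag1, 4 for Rag2 and 2 for Dntt were found again, Rag2 stayed among those of Rag1, and Rag1 came at rank 8 for Rag2.

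Gfra1, a receptor gene best known from nerve cells, stood at 1.25 in pro-B-like and 0.753 counts per 10000 UMIs in small pre-B-like cells. Sec63, a gene of protein entry into the endoplasmic reticulum, stood at 2.64 and 5.06. Arpp21 stood at 1.61 in pro-B-like and 0.00978 in small pre-B-like cells, which is the step that Dntt showed.

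With 1 mouse for each day, a difference between libraries has no replicate check, and mouse, day and handling cannot be told apart. Classes were rebuilt from markers, and leukaemia cells, if captured, are not separated from host B-lineage cells.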

How the data were processed

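The authors aligned reads to mm10 and counted UMIs with Cell Ranger 2.1.1, and the deposited matrices hold raw counts per gene and barcode, unfiltered and not normalized, for 1 library per day. Members and lists were chosen with earlier results of these data known. Barcodes with at least 500 UMIs were kept (80.2% to 84.5% of UMIs), with no limit on mitochondrial share. Variable genes were reduced to 30 principal components and clustered by the Leiden method. List genes, mitochondrial genes and immunoglobulin V, D and J genes were left out of clustering. B-lineage cells were clustered again at resolution 1.0 and progenitors at 2.0; the latter was set after cluster names and member levels had been seen. Clusters took a name with at least 3 fixed markers and no leading genes against it, unless over 80% of their cells came from 1 library. Prg2, Prg3 and Epx were added as eosinophil markers that bar a progenitor name after seeing the data. Doublets were kept, and Scrublet's highest scores, at 0.8% per 1000 barcodes of a library, were marked.

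Levels are summed counts per 10000 UMIs. Shares were also read after drawing 1000 UMIs per cell. Genes with at least 50 counts in both groups together were compared. The text names the members, lists of at most 5 genes in full, of longer lists the 4 genes with the largest mean log2 ratio in a comparison, and the 5 genes most like each member among those with at least 200 UMIs; other names were chosen after their values were seen. Alternatives were other UMI minimums, a mitochondrial limit, doublets left out, other resolutions and components, each library left out and means over cells. Further ones were the level in neutrophil-like cells subtracted, other thinning, no count minimum and another log constant. Free RNA of barcodes with few UMIs was not subtracted. The Igkc split was chosen after seeing the data. Scripts were tested on simulated data. Promoter sequence came from RefSeq and positions from GENCODE M21. Python 3.11.15, numpy 2.4.6, pandas 2.3.3, scipy 1.17.1, scikit-learn 1.9.0, scanpy 1.11.5, leidenalg 0.10.2, igraph 0.11.9 and matplotlib 3.10.9 were used.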

Additional observations from a re-analysis of the deposited data

How the results depend on the processing

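Of 566 values of 43 results under alternatives, 497 stayed within their interval or count range, 68 moved and 1 that had passed 1.5-fold turned direction; the cause was not tested. Levels are counts per 10000 UMIs. No paired analysis of the days was possible because they are each 1 library of its own mouse and share no replicate. Stages were compared within each library by a rule of size, and no paired test over the libraries was run.

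Means over cells gave Rag1 4.16 in small pre-B-like (3.71 as reported) and 3.47 in pro-B-like cells (2.90), and Dntt 2.0 in stem and multipotent progenitor-like cells (2.32) and 3.06 in the Nrgn Bfsp2 cluster (1.94). With 20 principal components Dntt was 11.3 in lymphoid progenitor-like (7.40) and 2.76 in stem and multipotent progenitor-like cells, and without marked doublets 6.85 in the former. Thinned to 500 UMIs, Rag1 shares were 18.4% in small pre-B-like (29.5%) and 16.1% in pro-B-like cells (27.1%), and the Dntt share was 42.7% in pro-B-like cells (59.9%). At resolution 0.6, 15 list genes were lower in cycling than in small pre-B-like cells (6).

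The alternatives of this paragraph were chosen after seeing the data. Taking all B-lineage clusters as 1 class gave Rag1 0.552, Rag2 0.192 and Dntt 1.22. Adding the day 3 Rnase12 Myl10 cluster to the pro-B-like cells gave Rag1 0.653, Rag2 0.239 (0.833) and Dntt 3.27 (11.6), shares of 17.2% for Rag1 and 41.3% for Dntt, 2 list genes higher than in cycling cells (6), and day 3 to day 0 ratios of 0.134 for Dntt (1.37) and 0.0598 for Rag1 (1.67), both in the other direction than reported. Leaving out barcodes with more neutrophil RNA gave Rag1 3.04 and a share of 25.3% in small pre-B-like cells, Dntt 6.04 in lymphoid progenitor-like and 2.82 in stem and multipotent progenitor-like cells, and 0 list genes lower in small pre-B-like than in mature B-like cells (1). Progenitor resolution 1.5 gave Dntt 3.14 in the latter class, with no lymphoid progenitor class. Plasmacytoid dendritic-like groups held Dntt at 1.64, 0.295, 1.55, 1.78 and 0.506 (1.30).

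Leaving out each library in turn gave Dntt 11.2 to 12.5 in pro-B-like, 6.13 to 8.37 in lymphoid progenitor-like, 2.05 to 2.75 in stem and multipotent progenitor-like and 1.17 to 1.43 in plasmacytoid dendritic-like cells. The Nrgn Bfsp2 cluster was not found as such at resolution 0.6. Counts were few for Rag2 by day, and day 12 had 10 pro-B-like, 17 small pre-B-like and 7 cycling cells.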
